A study of Mus musculus with 2 samples.

Results

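Imprinted growth regulators are genes read mainly from the copy of 1 parent that promote or restrain growth of the embryo and placenta. The 10 described here (Igf2, H19, Cdkn1c, Phlda2, Slc22a18, Kcnq1ot1, Igf2r, Airn, Grb10 and Plagl1) come from 5 domains, named Igf2-H19, Kcnq1, Igf2r, Grb10 and Plagl1. Each was found by matching its symbol in the GENCODE annotation of GRCm38 to the Ensembl identifiers of a deposited table of 46983 genes, and all 10 had a row. The table holds raw read counts from 2 RNA sequencing libraries of 46C, a line of mouse embryonic stem cells with a GFP reporter at Sox1. In the linc1557 knockdown library the cells expressed a hairpin that targets linc1557, a long noncoding RNA, and in the control shRNA library they expressed a control hairpin. Per the labels, both were grown with feeders, serum and LIF (leukaemia inhibitory factor), infected with pLKO.1-TRC virus and selected with puromycin before stably infected clones were picked. How many clones entered each library, and whether feeder cells were taken off before lysis, is not stated in the sources used here. The series title ties linc1557 to the onset of differentiation and to LIF/STAT3 signalling.

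Imprinted genes lie in clusters whose parental copies carry different DNA methylation at a control region, and in several clusters a long noncoding RNA from the paternal copy silences its neighbours in cis. Kcnq1ot1 does this for the Kcnq1 domain and Airn for Igf2r. Paternally expressed members such as Igf2 tend to promote growth, whereas maternally expressed members such as Cdkn1c, Phlda2, Igf2r and Grb10 tend to restrain it. Counts per gene do not separate the parental copies, so nothing here measures imprinting itself.

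Each group had 1 library, so differences have no replicate check and no p-value is given. Calls rest on size alone: the scaled counts had to differ by 2-fold or more between knockdown and control, with 1 outside the exact 95% interval (Clopper-Pearson). The bracketed intervals hold counting error alone, and reads without molecular identifiers are not independent molecules. The libraries held 26693282 counts (knockdown) and 23146210 counts (control). A gene entered when it reached 1 CPM (count scaled to library size) in either library after TMM scaling, and 15850 genes did, with a median log2 ratio of 0.02. No gene name matched linc1557, so the knockdown itself was not analysed here and the libraries are named as labelled. All 10 markers of pluripotent cells that had been listed entered, and none was called. They ran from Klf4 with 1692 knockdown against 1352 control counts to Tdgf1 with 16581 knockdown against 8642 control counts. Their median log2 ratio was 0.37, and their summed level was 3131 CPM in the knockdown library and 2286 CPM in the control library.

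All 10 imprinted growth regulators entered. Of them, 6 were lower in the knockdown library (Igf2, H19, Cdkn1c, Phlda2, Airn and Grb10), 1 was higher (Plagl1), and 3 were not called (Slc22a18, Kcnq1ot1 and Igf2r). Over all entered genes, 9.48% were called lower and 4.68% higher. Members were chosen with earlier results of these data known, so their counts beside these shares are a description. Airn reached 1 CPM in the control library alone (0.820 CPM in knockdown and 2.36 CPM in control cells), so it could enter only with a lower ratio. The median log2 ratio of the 10 was -1.50. Of the 6 maternally expressed members 4 were lower and none was higher, and of the 4 paternally expressed members 2 were lower and 1 was higher. Both directions and all 3 outcomes therefore occurred among the members, and the Kcnq1 and Igf2r domains each held called and uncalled genes.

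**Figure D1:**
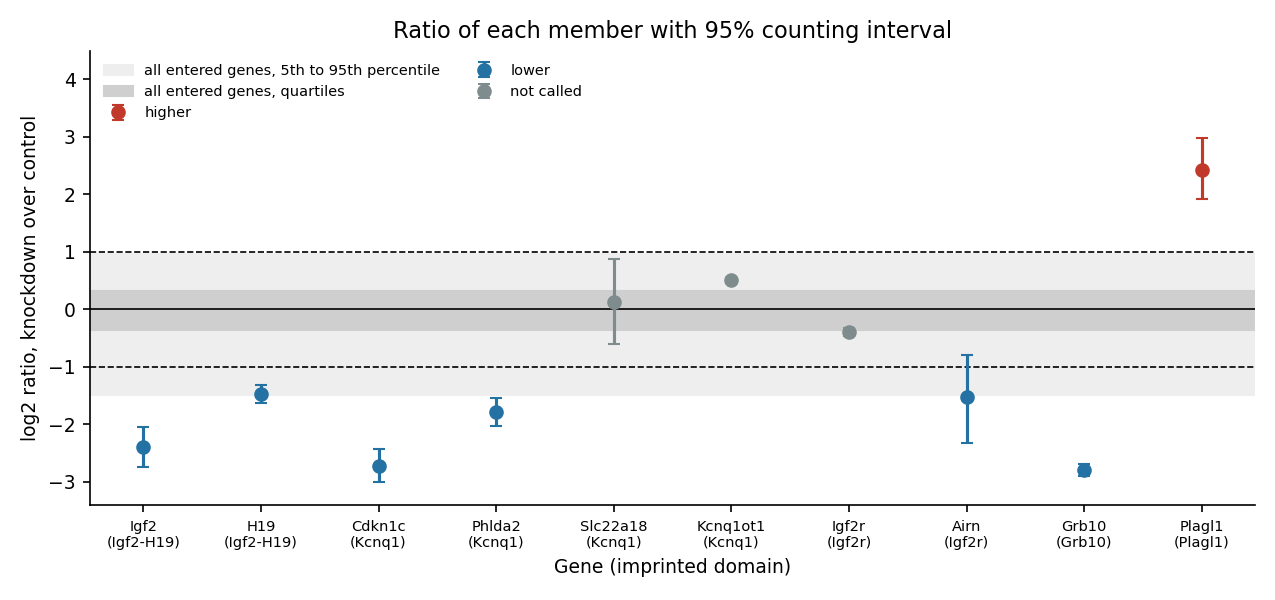
Log2 ratio, knockdown over control, of each member (points) with its 95% counting interval (bars), with lower genes in blue, higher in red and uncalled in grey. The dashed lines mark 2-fold, the dark band the quartiles of all entered genes (-0.35 to 0.33) and the light band their 5th to 95th percentile (-1.49 to 0.97). Igf2, Cdkn1c, Phlda2 and Grb10 lie below the light band and Plagl1 above it, while H19 and Airn lie at its lower edge.

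Igf2, the fetal growth factor that acts through the IGF1 and insulin receptors, lies on chromosome 7 from 142650766 to 142666816 on the minus strand (ENSMUSG00000048583). It had 83 counts in the knockdown library and 409 in the control library. Its level was 5.24-fold lower in the knockdown library (4.13 to 6.71), and only 1.60% of entered genes had a lower ratio. H19, a maternally expressed long noncoding RNA that shares enhancers with Igf2, starts 88.7 kb from the Igf2 start (142575529 to 142578143, ENSMUSG00000000031). It had 473 counts in the knockdown library and 1235 in the control library, and was 2.77-fold lower (2.49 to 3.09). The genes are read from opposite parental copies, and both were lower. The drop was unequal, since there were 5.70 H19 counts for each Igf2 count in the knockdown library and 3.02 in the control library. That quotient was 1.89 times as high in the knockdown library (1.45 to 2.48, exact conditional interval), a measure in which the scaling between libraries cancels.

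H19 is also the host of miR-675, whose hairpin lies inside the H19 exon at chromosome 7 from 142577064 to 142577147. The Mir675 row shares all 84 of its bases with H19 exons, and it had 40 counts in knockdown cells and 93 in control cells, 2.47-fold lower (1.69 to 3.67). Those counts amounted to 8.46% and 7.53% of the H19 counts, a quotient that differed by a factor of 1.12 with an interval that included 1 (0.743 to 1.67). RNA fragments of the host transcript and of the hairpin cannot be told apart in such rows, so the row is no measure of the mature microRNA. The mature strands are shown because this row moved with its host. They are given 5′ to 3′ from RefSeq on GRCm38.p6, with the seed (bases 2 to 8) in capitals, and the seeds differ between the strands.
mmu-miR-675-5p: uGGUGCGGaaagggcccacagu
mmu-miR-675-3p: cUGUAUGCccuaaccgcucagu

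Mir483, a microRNA gene in an Igf2 intron, had 0 counts in both libraries. The antisense transcript Igf2os shares 98 exon bases with Igf2 and had 2 counts in knockdown cells and 14 in control cells, which was under the entry level. The kit's strand protocol and the strand setting of the counting are not stated in these sources, so reads of Igf2 and Igf2os cannot be told apart where they overlap.

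The Kcnq1 domain begins further along chromosome 7. Cdkn1c, which encodes the cyclin-dependent kinase inhibitor p57, lies from 143458339 to 143461050 on the minus strand (ENSMUSG00000037664). It had 118 counts in the knockdown library and 729 in the control library, 6.56-fold lower (5.40 to 8.04). Phlda2, a pleckstrin homology domain protein that restrains growth of the placenta, lies from 143501545 to 143503150 (ENSMUSG00000010760). It had 184 counts in knockdown cells and 596 in control cells and was 3.44-fold lower (2.91 to 4.08). Between these genes lies Slc22a18, a membrane transporter of the organic cation family (143473736 to 143499334, ENSMUSG00000000154). It had 36 counts in knockdown cells and 31 in control cells, a ratio of 1.09 (0.657 to 1.83). The interval leaves room for changes below 2-fold in either direction. All 3 genes are maternally expressed, and the outcome differed among them.

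Kcnq1ot1, the paternally expressed noncoding RNA of this domain, lies on the minus strand from 143203458 to 143296549, within the span of Kcnq1 (ENSMUSG00000101609). It was the member with most counts, 14437 in the knockdown library and 9503 in the control library, which made up 72.4% of all counts of the 10 members in knockdown cells and 42.3% in control cells. The ratio of 1.43 (1.39 to 1.47) was under the 2-fold call, and its counting interval did not include 1. Kcnq1 itself, a potassium channel gene on the opposite strand that shares 121 exon bases with Kcnq1ot1, had 4 counts in knockdown cells and 11 in control cells and did not enter. The short predicted genes annotated within Kcnq1ot1 had between 0 and 2 counts.

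Within one library, counts of neighbours can be set against each other without any scaling. For every 100 Kcnq1ot1 counts there were 0.817 Cdkn1c counts in the knockdown library and 7.67 in the control library. The number of Cdkn1c counts per Kcnq1ot1 count was 9.39-fold lower in the knockdown library (7.70 to 11.5). Phlda2 counts were 1.27% of the Kcnq1ot1 counts in knockdown cells and 6.27% in control cells, 4.92-fold lower (4.16 to 5.85). Cdkn1c was also lower relative to Phlda2, with 0.641 counts for each Phlda2 count in the knockdown library and 1.22 in the control library, 1.91-fold lower (1.47 to 2.49). Slc22a18 counts were 19.6% of the Phlda2 counts in knockdown cells and 5.20% in control cells, 3.76 times as high (2.19 to 6.47).

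**Figure D2:**
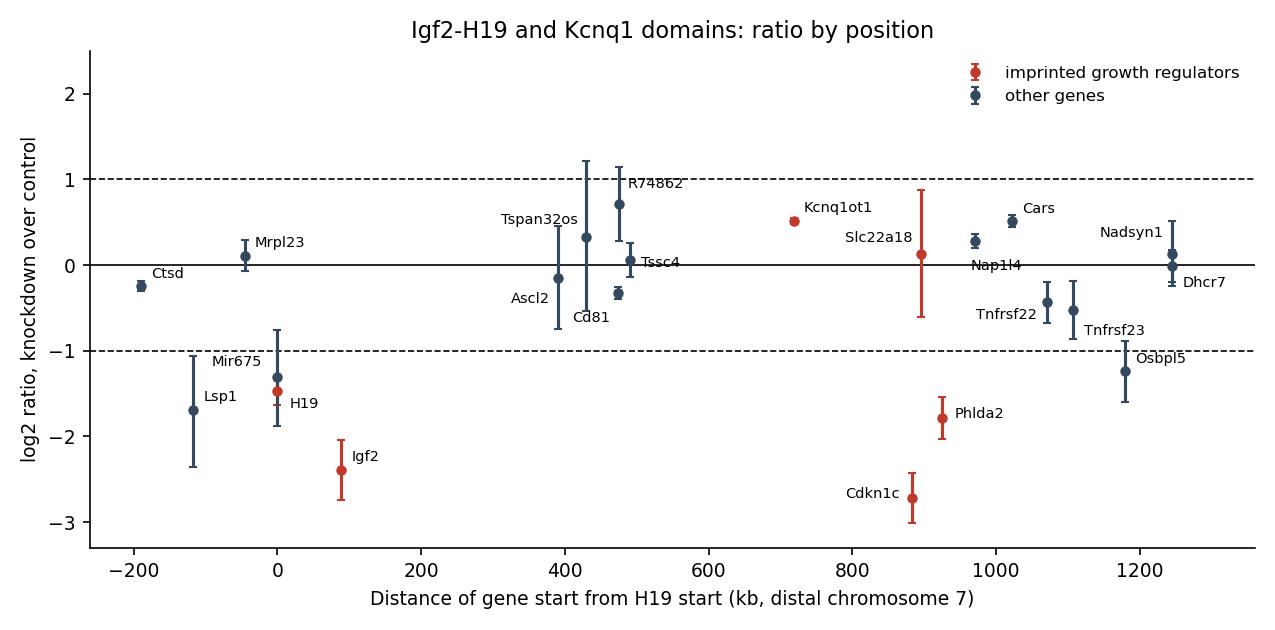
Log2 ratio, knockdown over control, with 95% counting intervals, of the 22 entered genes on the stretch of chromosome 7 that holds the Igf2-H19 and Kcnq1 domains, by the distance of each gene's start from the H19 start in kilobases (red, imprinted growth regulators; dark blue, other genes; dashed lines, 2-fold). H19 and Igf2 at the left and Cdkn1c and Phlda2 at 883 and 925 kb are low, while Kcnq1ot1 at 718 kb and Slc22a18 lie near or above 0.

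Of 21 listed neighbours on this stretch 13 entered, of which 2 were lower, none was higher and 11 stayed uncalled, at a median log2 ratio of -0.15. Called in either direction were 14.2% of all entered genes. The lower neighbours were Lsp1, a leukocyte actin-binding protein gene, with 28 knockdown against 85 control counts (3.23-fold, 2.08 to 5.14), and Osbpl5, an oxysterol-binding protein relative at the far end of the domain, with 95 knockdown against 211 control counts (2.36-fold, 1.84 to 3.04). Lsp1 did not enter at 5 CPM. Ascl2, a trophoblast transcription factor gene of the domain, had 48 counts in knockdown cells and 50 in control cells (log2 ratio -0.15). Cars and Nap1l4, next to Phlda2 on its distal side, had log2 ratios of 0.51 and 0.28.

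Igf2r encodes the receptor for IGF2 and mannose 6-phosphate, which carries IGF2 to lysosomes for breakdown. It lies on chromosome 17 from 12682406 to 12769664 on the minus strand (ENSMUSG00000023830). It had 3550 counts in knockdown cells and 4382 in control cells, 1.31-fold apart (1.25 to 1.37), and was not called. Airn, the noncoding RNA that starts within Igf2r and runs on the opposite strand (12741311 to 12860136, ENSMUSG00000078247), had 21 counts in knockdown cells and 57 in control cells. It was 2.88-fold lower (1.72 to 5.01), with a wide interval that the small counts set, and it did not enter at 5 CPM, where 5 members were lower. In undifferentiated mouse embryonic stem cells Airn is known to be weakly transcribed and Igf2r to be active on both parental copies. Airn counts were 0.592% of Igf2r counts in knockdown cells and 1.30% in control cells, a 2.20-fold lower share (1.31 to 3.83). Igf2 counts, set against those of its clearance receptor, were 2.34% of Igf2r counts in knockdown cells and 9.33% in control cells, 3.99-fold lower (3.13 to 5.14). The annotated exons of the pair share 0 bases, and unspliced Airn RNA across Igf2r introns would not count for either row. Airn also runs past the start of Igf2r. Since the strand setting is not stated, unspliced Airn reads over Igf2r exons there could count for Igf2r. Of 13 listed neighbours 8 entered and none was called, with a median of 0.02. Slc22a2 and Slc22a3, which Airn silences in mouse placenta, had 0 counts in knockdown cells, and 1 and 0 in control cells, and Mas1, which overlaps Airn, had 0 in both libraries.

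Grb10 encodes an adaptor that binds the insulin and IGF1 receptors and dampens their signalling. It is expressed from the maternal copy in most mouse tissues and from the paternal copy in neurons. It lies on chromosome 11 from 11930508 to 12038683 on the minus strand (ENSMUSG00000020176). With 843 counts in knockdown cells and 5508 in control cells it was 6.94-fold lower (6.46 to 7.47), and 1.06% of entered genes had a lower ratio. Of 6 listed neighbours 4 entered. Ikzf1, a lymphoid transcription factor gene, was 3.31-fold lower (1.52 to 7.96) from 9 knockdown against 28 control counts and did not enter at 5 CPM. It reached 1 CPM in the control library alone, so it could enter only with a lower ratio. Ddc and Cobl, which flank Grb10, stayed uncalled at log2 ratios of 0.54 and 0.62, and the 4 had a median of 0.49. Among related adaptors, Grb2 had a log2 ratio of 0.15 and Grb14 one of -0.70, both not called, and Grb7 was 2.03-fold lower (1.79 to 2.30) with 382 knockdown against 729 control counts, a call that DESeq2 size factors and scaling on nuclear protein-coding genes ended.

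Plagl1, also called Zac1, encodes a zinc finger transcription factor that in mouse regulates other imprinted genes, Igf2 and H19 among them. It is paternally expressed and lies on chromosome 10 from 13060504 to 13131694 on the plus strand (ENSMUSG00000019817). It had 206 counts in knockdown cells and 36 in control cells and was 5.39-fold higher (3.77 to 7.90), and 99.4% of entered genes had a lower ratio. The related genes Plag1 and Plagl2 had log2 ratios of 0.23 and 0.42 and were not called. For every 100 Grb10 counts there were 24.4 Plagl1 counts in the knockdown library and 0.654 in the control library. Of 10 listed neighbours, 1 had no row, 8 entered and 1 was lower, Stx11, a syntaxin gene, at 2.17-fold (1.31 to 3.70) from 24 knockdown against 49 control counts. That call was lost when the knockdown library was thinned to the depth of the control library, at 5 CPM and at 4-fold. Stx11 reached 1 CPM in the control library alone, so it could enter only with a lower ratio. Over all entered genes, 9.48% were lower. The median of the 8 was -0.14.

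Promoter windows (250 bases before to 50 after a RefSeq start, GRCm38.p6) were given for 8 of the 10 members, 12 windows in all. They were searched on both strands for TGCCGC, the hexamer that the imprint-protecting zinc finger protein ZFP57 binds when methylated, whose reverse complement is GCGGCA. It occurred in 3 of the 12 windows, against 11.6% of all 32851 windows in the table. The share over all windows was not matched for base composition. The windows that hold the hexamer belong to Grb10 (the first of its windows), Plagl1 and Igf2 (the second of 4 windows of that gene). The windows of the called members Phlda2 and Airn lacked it, as did those of the uncalled Slc22a18, Kcnq1ot1 and Igf2r. No window was given for H19 and Cdkn1c, both called lower. The windows with the hexamer were 80%, 70.7% and 49.7% G or C, against a median of 52.7% over all windows. They are shown 5′ to 3′ on the strand of the gene, with the hexamer or its reverse complement in capitals. A match describes letters in this window and is no evidence of binding.
Grb10 (chr11:12037371-12037670, minus strand): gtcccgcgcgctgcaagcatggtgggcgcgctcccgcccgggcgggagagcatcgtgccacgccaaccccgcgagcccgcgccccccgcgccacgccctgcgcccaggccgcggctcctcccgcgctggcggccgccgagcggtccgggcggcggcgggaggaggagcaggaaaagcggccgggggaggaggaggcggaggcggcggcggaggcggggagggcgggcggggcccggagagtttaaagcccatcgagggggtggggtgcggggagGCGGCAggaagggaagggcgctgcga
Plagl1 (chr10:13090582-13090881, plus strand): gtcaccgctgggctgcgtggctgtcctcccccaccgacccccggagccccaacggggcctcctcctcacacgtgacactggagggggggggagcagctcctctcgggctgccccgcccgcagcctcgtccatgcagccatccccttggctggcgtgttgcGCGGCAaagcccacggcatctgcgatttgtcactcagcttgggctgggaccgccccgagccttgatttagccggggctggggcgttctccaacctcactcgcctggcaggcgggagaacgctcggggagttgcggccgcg
Igf2 (chr7:142661222-142661521, minus strand): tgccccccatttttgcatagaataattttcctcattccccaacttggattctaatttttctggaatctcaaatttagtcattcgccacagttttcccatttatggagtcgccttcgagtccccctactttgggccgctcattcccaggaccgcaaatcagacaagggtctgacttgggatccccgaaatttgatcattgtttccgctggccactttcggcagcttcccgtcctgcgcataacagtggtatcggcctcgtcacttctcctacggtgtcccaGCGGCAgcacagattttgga

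These windows held 45, 26 and 14 CpG dinucleotides for Grb10, Plagl1 and Igf2, against a median of 7 over all windows. Among the other members, Igf2r had 34 and Phlda2 26, while Kcnq1ot1 had 9, Airn 3 and Slc22a18 2. High and low CpG content occurred among called and uncalled members alike.

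To compare members with each other, counts were put on a per-length scale, TMM CPM per kilobase of the gene length in the deposited table. In the knockdown library the order ran from Igf2r (14.7), Phlda2 (9.49), H19 (7.78), Kcnq1ot1 (6.68), Grb10 (3.62) and Cdkn1c (2.39) to Plagl1 (1.03), Slc22a18 (0.818), Igf2 (0.566) and Airn (0.229). In the control library it ran from Phlda2 (32.6), Grb10 (25.1), H19 (21.6), Igf2r (19.3) and Cdkn1c (15.7) to Kcnq1ot1 (4.67), Igf2 (2.96), Slc22a18 (0.748), Airn (0.660) and Plagl1 (0.191). Neighbours in these orders had overlapping 95% Poisson intervals for Phlda2 and H19, Plagl1 and Slc22a18, and Slc22a18 and Igf2 in the knockdown library, and for Slc22a18 and Airn in the control library. Grb10 thus stood in place 5 in the knockdown and place 2 in the control library, and Plagl1 in places 7 and 10. Igf2 was expressed at a lower level per length than 87.7% of entered genes in the knockdown library and 58.6% in the control library. The place of Phlda2 depends on the length used. The table gives it 757 bases and the GENCODE exons 1121, and with 1121 bases Grb10 takes place 1 in the control library and H19 passes Phlda2 in the knockdown library.

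**Figure D3:**
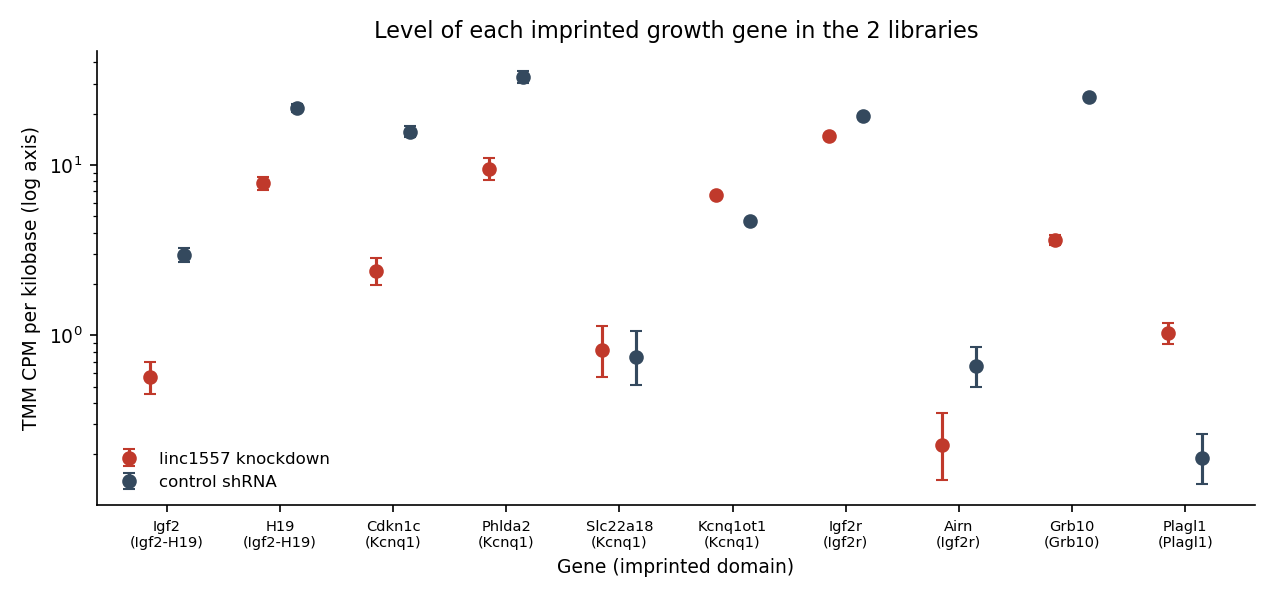
Level of each member as TMM CPM per kilobase (log axis) in the linc1557 knockdown library (red, left of each pair) and the control shRNA library (dark blue, right), with 95% Poisson intervals of the counts. The 5 genes above 15 in the control library are Phlda2, Grb10, H19, Igf2r and Cdkn1c, of which Igf2r alone was above 10 in the knockdown library.

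Genes around the members in the growth pathway were read from lists, beside 9.48% lower and 4.68% higher over all entered genes. Of 26 listed genes of the IGF and insulin receptor pathway 25 entered, 3 were lower, none was higher and 22 stayed uncalled, at a median log2 ratio of 0.04. The lower ones were the receptor substrates Irs4 (15 knockdown against 346 control counts, 24.5-fold, 14.7 to 44.3) and Irs1 (92 knockdown against 330 control counts, 3.81-fold, 3.02 to 4.86) and the ligand gene Igf1 (2 knockdown against 29 control counts, 15.4-fold, 3.90 to 133). Irs4 and Igf1 reached 1 CPM in the control library alone, so they could enter only with a lower ratio. With total counts 4 genes of the list were lower, and at 5 CPM, where Igf1 did not enter, 2 were. The log2 ratios of the 22 uncalled genes ran from -0.93 for the kinase gene Akt1 (559 knockdown against 1000 control counts) and -0.76 for Irs2 to 0.54 for Pik3ca, and the receptor genes Igf1r and Insr had -0.50 and -0.39. Of 10 genes for IGF-binding proteins and binders of IGF2 mRNA 9 entered, 4 were lower and 5 stayed uncalled, at a median of -0.97. The largest difference was that of Igfbp3, which carries IGFs outside the cell, with 228 knockdown against 1766 control counts (8.23-fold lower, 7.17 to 9.49), followed by Igfbp5 (3.84-fold), Igfbp6 (2.29-fold) and Igfbp4 (2.09-fold). Igfbp6 reached 1 CPM in the control library alone, from 19 knockdown against 41 control counts. Igfbp2, with 6105 knockdown against 3991 control counts, had a log2 ratio of 0.53, and Igfbp7 had one of -0.97. Neither was called, nor were the mRNA-binding genes Igf2bp1, Igf2bp2 and Igf2bp3. Of 19 genes of mannose 6-phosphate tagging and lysosomal sorting, the route that IGF2R serves, none was called and the median was -0.10. Lamp1 and Ctsd, with most counts over both libraries together, had log2 ratios of 0.10 and -0.25.

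Among 14 CDK inhibitor and G1 genes, 3 were lower, against 9.48% of all entered genes. None was higher and 11 stayed uncalled, at a median of -0.18. The lower ones were the cyclin gene Ccnd2 (2.71-fold, 2.48 to 2.96) and the inhibitor genes Cdkn2a (2.04-fold, 1.58 to 2.66) and Cdkn2b (2.02-fold, 1.58 to 2.60). With DESeq2 size factors, or after centring by expression, 1 gene of the list was lower, and after that centring 1 was higher. The closest relatives of Cdkn1c, Cdkn1a and Cdkn1b, had log2 ratios of -0.19 and -0.07. Cdkn1c had 0.127 counts for each Cdkn1b count in the knockdown library and 0.790 in the control library, 6.23-fold lower (5.01 to 7.79). Of the relatives of Phlda2, Phlda3 and Phlda1 had log2 ratios of -0.74 and 0.50 and were not called.

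Of 29 listed factors of imprint maintenance and DNA methylation, 2 were lower, none was higher and 27 stayed uncalled, at a median of 0.01. Over all entered genes, 9.48% were lower and 4.68% higher. The de novo DNA methyltransferase gene Dnmt3b had 2732 knockdown against 11239 control counts (4.37-fold lower, 4.19 to 4.56), and Dppa3, which protects methylation in the early embryo, had 82 knockdown against 302 control counts (3.91-fold lower, 3.06 to 5.06). Those not called ran from log2 ratios of -0.92 for Dnmt3l and -0.76 for Dnmt3a, the partner and the relative of Dnmt3b, to 0.62 for Zfp57 and 0.86 for the demethylation enzyme gene Tet2, with Dnmt1 at 0.55 and Trim28 at -0.10. With total counts or centring by expression 3 genes of the list were lower. Of 60 other imprinted genes 47 entered, and 7 were lower, against the same 9.48%. In that list 1 was higher and 39 stayed uncalled, at a median of 0.05. This list repeats some of the domain neighbours counted above, Osbpl5 among its lower genes. Magel2 (31.5-fold, 10.4 to 156, from 3 knockdown against 89 control counts), Calcr (23.7-fold, 7.78 to 118), Asb4 (12.1-fold, 4.90 to 38.7) and Sfmbt2 (6.60-fold, 6.02 to 7.23) were the lowest. Like Peg12, another lower gene of the list, Magel2, Calcr and Asb4 reached 1 CPM in the control library alone. Such genes could enter only with a lower ratio. Magel2, Calcr and Asb4 did not enter at 5 CPM, where 2 genes of the list were lower. The median of the 10 imprinted growth regulators was -1.50, but members were chosen with results known, so the gap to the other imprinted genes is a description.

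Some markers of other cell types were lower in the knockdown library too. Of 22 markers of feeder fibroblasts all entered, 13 were lower, none was higher and 9 stayed uncalled, at a median of -1.27. Their summed level was 1863 CPM in knockdown cells and 2974 CPM in control cells, and none was at 0. Timp3, Col6a3, Col3a1 and Col6a2 were 6.34-, 5.41-, 4.48- and 4.40-fold lower, while Dcn, Vim and Fn1 had log2 ratios of 0.26, -0.35 and -0.18. Of 9 markers of primitive or visceral endoderm 5 entered and all 5 were lower, against 9.48% of all entered genes. Gata4, Gata6, Sox17 and Foxa2 reached 1 CPM in the control library alone, so they could enter only with a lower ratio. Dab2 passed in both libraries (181 knockdown against 370 control counts). Sox7, which did not enter, had 15 knockdown against 6 control counts. The summed level of the 9 was 8.86 CPM in knockdown cells and 43.5 CPM in control cells. Afp and Ttr, defining markers of visceral endoderm, had at most 1 count. Of 8 trophoblast markers 5 entered and 3 were lower, at 30.1 CPM summed in knockdown cells and 57.6 CPM in control cells. Cdx2 and Krt7 reached 1 CPM in the control library alone. They did not enter at 5 CPM, where 1 of the trophoblast markers was lower. Elf5 and Hand1 had at most 3 counts. Embryonic fibroblasts are known to transcribe Igf2, H19 and Cdkn1c, and placental cells Phlda2. The part of such cells in the lower members was not tested, and in bulk RNA fewer cells of a type and less RNA per cell cannot be told apart.

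**Figure D4:**
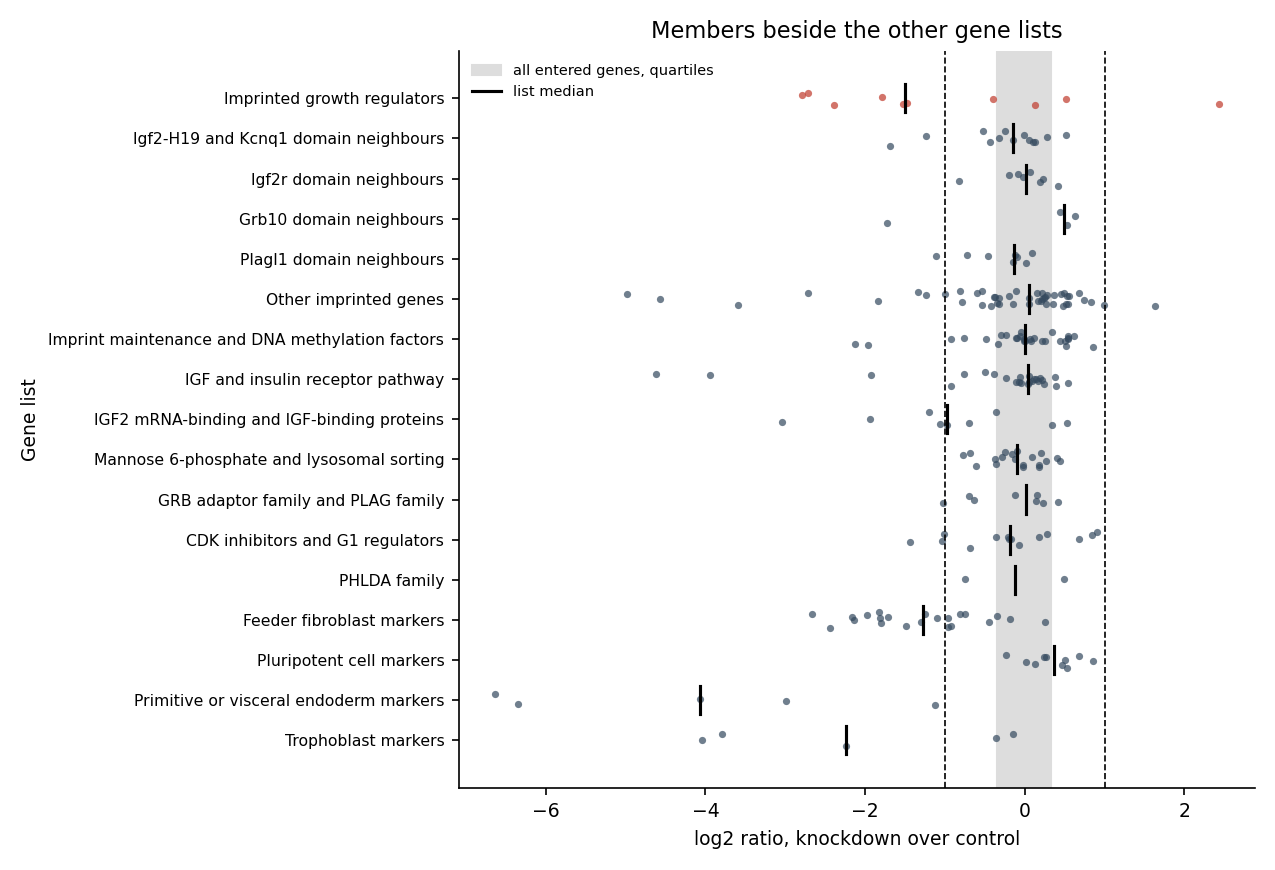
Log2 ratio, knockdown over control, of the entered genes of each list (points) with the list median (black bar), beside the quartiles of all entered genes (grey band). The 10 imprinted growth regulators (red, top) have a median of -1.50, their domain neighbours medians between -0.15 and 0.49, and the feeder fibroblast markers one of -1.27.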

How the data were processed

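The authors deposited 1 table of raw read counts by gene, unscaled, which also lists gene lengths. The submitters' processing notes name builds mm10 and GRCm38 and the tools HISAT2, featureCounts, Trim Galore and DESeq. Versions, strand setting and annotation release: not given in the sources used here. Libraries were made from total RNA with an Illumina TruSeq RNA kit, per the labels' protocols.

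Symbols and coordinates came from GENCODE vM21 (GRCm38), which matched 46488 of 46983 identifiers. TMM factors from edgeR 4.0.16 (R 4.3.3) were 0.960 (knockdown) and 1.04 (control). Ratios carry no pseudocount, zeros were replaced by a floor of 3 counts, and pairs of counts of 3 or fewer got no ratio. The size rule was checked on counts simulated with counting noise only, which says nothing of the spread between samples. Ratios and plots used scipy 1.17.1, pandas 2.3.3, matplotlib 3.10.9 and numpy 2.4.6 under Python 3.11.15. The alternatives were other scalings (DESeq2 1.42.0 size factors among them), filters, a prior count, thinning, centring and other thresholds, and, chosen after seeing the data, the annotation's exon lengths.

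Members and the 16 lists were chosen with earlier results of these data known. Named were all members, rows that overlap them, called domain neighbours, and for each other list up to 4 called genes with the largest ratio, or the 2 most abundant if nothing was called. Further genes were named for their role or after their values were seen. Xist and Smoc1 were taken off the list of other imprinted genes, which merges 2 earlier lists, after their values were seen, since their imprinted allele was in doubt.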

Additional observations from a re-analysis of the deposited data

How the results depend on the processing

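The 7 calls among the members held under all 7 other scalings, centrings, a prior count and thinning, which each kept the direction of all 10. Scaling by total counts shifted the median of all genes by -0.12. At a 4-fold threshold 3 members were lower (Igf2, Cdkn1c and Grb10). Airn and Slc22a18 did not enter at 5 CPM. Over all genes, 330 were higher and 728 lower at 5 CPM, 1817 and 2598 at 1.5-fold, and 152 and 389 at 4-fold, against 742 and 1503 as reported. Over the lists 80 genes were called at 1.5-fold and 19 at 4-fold, against 45. Of the counts of higher or lower genes in single lists, 19 were 0 as reported; the other 13 gave 143 values under the alternatives, of which 29 moved by over 1.5 times. The log2 ratio of Kcnq1ot1 was 0.40 with total counts, 0.56 with DESeq2 size factors and 0.46 centred by expression, and that of Igf2r was -0.51 with total counts and -0.47 centred by expression, neither called. With the annotation's exon lengths, Phlda2 stood at 6.41 CPM per kilobase in knockdown cells and 22.0 in control cells, and Kcnq1ot1 at 6.05 and 4.23. No paired analysis was possible because each group had 1 library. For the same reason no library could be left out.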
